A study of Mus musculus with 4 samples.

Results

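Cholesterol and myelin lipid synthesis is described here through 34 genes chosen by symbol from the 43348 genes in the deposited matrices. The genes cover the mevalonate steps (7 genes), the steps from squalene to sterol (11), the regulators of the pathway (4), the fatty acid steps (8) and the galactolipid and sphingolipid steps (4). They were counted as UMIs (unique molecular identifiers, 1 per captured transcript) in cells positive for Pdgfra, Gpr17, Enpp6 or Mog, in interneurons and in astrocytes. Each of the 34 symbols was found in the matrices and had UMIs in each of these 6 cell classes.

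Cholesterol is built from acetyl-coenzyme A through mevalonate, the prenyl diphosphates and squalene, and SREBP transcription factors, escorted by SCAP and held back by INSIG, set the transcription of the enzymes by the sterol level of the cell. Oligodendrocytes make most of the cholesterol of myelin themselves, together with very long chain fatty acids, galactosylceramide and sulfatide. The lineage runs from Pdgfra-positive progenitors through Gpr17-positive committed and Enpp6-positive newly formed cells to Mog-positive myelinating oligodendrocytes, while astrocytes make sterols and lipids for other cells.

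The study sorted live tdTomato-positive (TdT+) cells by FACS from frontal cortex (nCX) and hippocampus (HPC) of juvenile mice at postnatal day 18 to 20 and sequenced them on the 10x Genomics platform. WT mice carried Nkx2-1-Cre, Grin1wt/wt and the Ai14 reporter, and Grin1-null mice carried Nkx2-1-Cre, Grin1fl/fl and Ai14, so that Cre and reporter were shared by both genotypes. All groups went through buffers with TTX, APV and Actinomycin-D, and each library pooled several mice. The question was what loss of the NMDA receptor subunit does to interneurons derived from the medial ganglionic eminence (MGE). Cre is driven by Nkx2-1, so Grin1 is deleted and tdTomato switched on in cells of that lineage. The glia measured here are the TdT+ ones of the sort, not a sample of all glia of the tissue, and their level of Grin1 is too low to show the deletion.

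There were 10 libraries: 3 from WT cortex, 3 from WT hippocampus, 2 from null cortex and 2 from null hippocampus. Replicate 1 of each group was made with 10x chemistry v2 and the others with v3. The paper counts 3 WT and 2 null biological replicates, so that cortex and hippocampus libraries of 1 replicate may share mice. Of 26987 cell barcodes 26201 were kept. UMI totals over all barcodes, dropped ones included, were 9306756, 14212183 and 28057207 in WT cortex and 10555408, 8782181 and 20639002 in WT hippocampus. They were 1488601 and 25688337 in null cortex and 3856745 and 47338167 in null hippocampus. Null cortex replicate 1 was the smallest library. The median per barcode, again over all barcodes, ran from 1479 UMIs in WT hippocampus replicate 2 to 9508 in null hippocampus replicate 2. Pairs of libraries shared 95 barcodes in all, at most 12 in a pair (0.312% of the smaller library). The largest share was 0.552%, 1 of the 181 barcodes of null cortex replicate 1.

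Grin1, the deleted gene, was read in interneurons first. Its level there was 142, 238 and 213 CPM (UMIs per 1000000 UMIs of the class in a library) in WT cortex and 118, 163 and 144 CPM in WT hippocampus. It was 35.8 and 27.9 CPM in null cortex and 27.1 and 19.5 CPM in null hippocampus. Every null library lay below every WT library, with a fitted difference of -2.63 ± 0.24 (log2 ± SE, adjusted p 0.00194), lower in 4 of 4 null libraries. The fit takes cortex and hippocampus libraries of the same replicate as independent, although they may share mice. Within regions the edgeR difference was -2.65 in cortex (adjusted p 0.069) and -2.62 in hippocampus (adjusted p 0.073), called in neither. In Mog-positive cells Grin1 ran from 0.504 to 7.62 CPM in WT and from 0.679 to 8.24 CPM in null libraries, on 72 UMIs in all. The groups overlapped there and the difference of -1.51 did not pass the threshold (adjusted p 0.955). Grin1 held 29 UMIs in Pdgfra-positive, 29 in Gpr17-positive and 10 in Enpp6-positive cells and 6 in astrocytes.

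A cell was put in the stage whose gene (Pdgfra, Gpr17, Enpp6 or Mog) had the most UMIs, at least 2. Interneurons held at least 2 UMIs of Gad1 and Gad2 together, and astrocytes at least 2 of Aqp4 and Gja1. The classes held 512 Pdgfra+, 1164 Gpr17+, 919 Enpp6+ and 7229 Mog+ cells, 10407 interneurons and 399 astrocytes, and 479 cells that met gates of more than 1 broad group were left out. The class names are gates on RNA counts, and no cell was followed over time. Sums of fewer than 10 cells were not fitted. These were null cortex replicate 1 for Pdgfra+ (1 cell), Gpr17+ (3), Enpp6+ (2) and astrocytes (1), and null hippocampus replicate 1 for Pdgfra+ (8).

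The gates were read against marker lists. The Pdgfra list summed to a median of 6293 CPM over the libraries in Pdgfra+ cells and 18.6 CPM in Mog+ cells. The Mog list summed to 687 CPM in Pdgfra+, 18033 in Gpr17+, 55139 in Enpp6+ and 155929 in Mog+ cells, and to 259 CPM in interneurons and 715 CPM in astrocytes. Each list holds the gene that sets its gate, so that part of this order is given by the gates. Without the gate genes the Mog list summed to 674, 17934, 54930.1 and 150399 CPM from Pdgfra+ to Mog+ cells, and the Pdgfra list to 4507, 1964, 529.9 and 17.9 CPM, in the same order. With its gate gene in, the Enpp6 list did not part Enpp6+ cells (6257 CPM) from Gpr17+ cells (5248 CPM) by a wide margin, and without it the sums were nearly equal (5089 and 4961 CPM), and the Gpr17 list stood at 3465 CPM in Gpr17+ cells. Interneurons held 18013 CPM of their own list and 3.44 CPM of the astrocyte list, which stood at 10522 CPM in astrocytes. Interneuron markers summed to 108 CPM in Mog+ cells and 119 CPM in astrocytes. A list of fibroblast and mural genes summed to 196 CPM in astrocytes (19.5 to 1308 CPM across libraries). In Pdgfra+ and Gpr17+ cells its median was 0 CPM, with highest libraries at 748 and 176 CPM. Its part in the values of these classes was not tested.

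The summed level of the 34 genes rose along the stages. Lowest, median and highest library stood at 1821, 2695 and 4813 CPM in Pdgfra+ cells, 2868, 4771 and 9821 CPM in Gpr17+ cells, 7303, 11283 and 17742 CPM in Enpp6+ cells and 11642, 13731 and 15716 CPM in Mog+ cells. Interneurons stood at 1066, 1277 and 1398 CPM and astrocytes at 3924, 7022 and 7726 CPM. Every library of interneurons lay below every library of the other classes, and neighbouring stages overlapped at each step. By role, the mevalonate steps had medians of 661, 1315, 3845 and 3389 CPM and the squalene to sterol steps 537, 951, 1991 and 2274 CPM from Pdgfra+ to Mog+ cells. The galactolipid and sphingolipid steps had medians of 266, 1005, 1700 and 4606 CPM. The sterol sums were thus near the Mog+ level in Enpp6+ cells already, whereas the galactolipid sum had its largest difference in CPM between Enpp6+ and Mog+ cells.

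**Figure D1:**
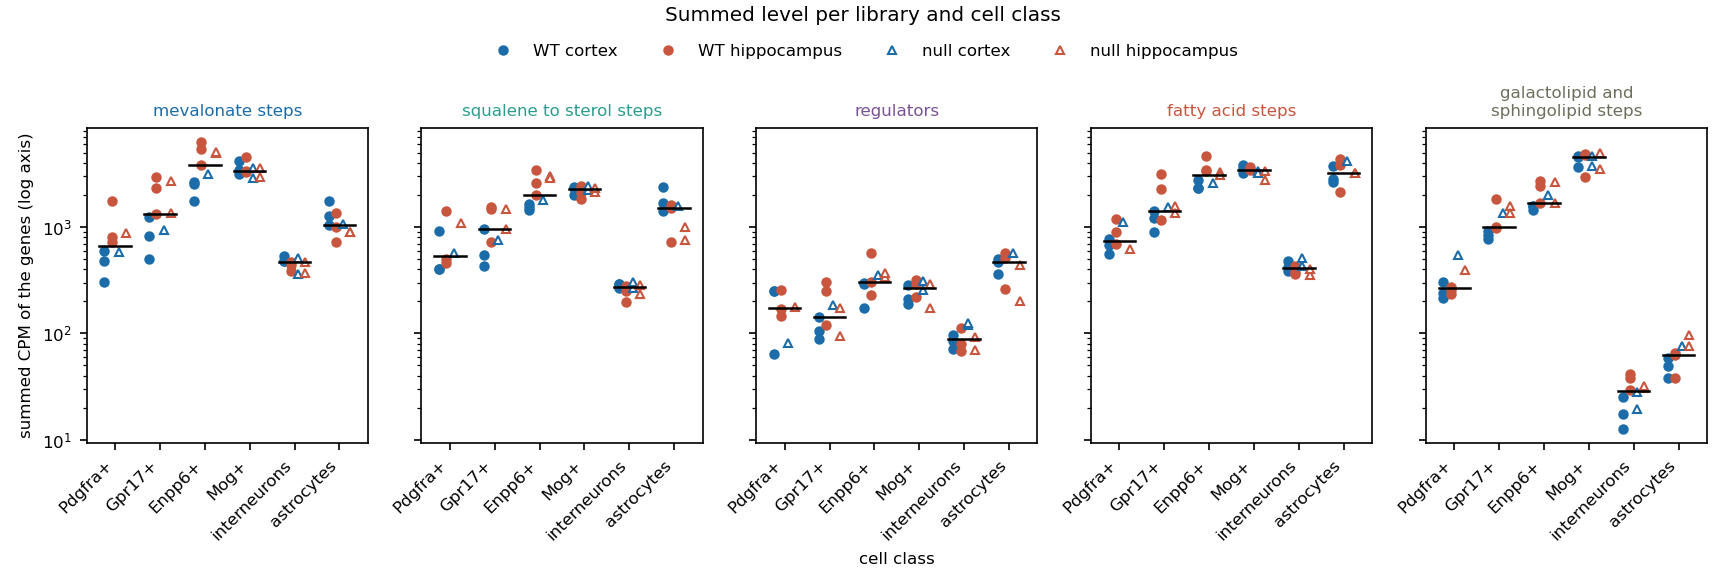
Summed level of the genes of each role (CPM, log axis) per cell class, with 1 point per library and a bar at the median (filled circles WT, open triangles null, blue cortex, red hippocampus). Galactolipid and sphingolipid sums were lowest in interneurons and astrocytes (medians 28.7 and 62.7 CPM) and highest in Mog+ cells (4606 CPM).

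Among the 4 stages 17 of the 34 genes had their highest median in Enpp6+ cells and 17 in Mog+ cells. Enpp6+ cells held the highest median of 6 of the 7 mevalonate genes (Acat2, Hmgcs1, Mvk, Pmvk, Mvd and Idi1, with Fdps highest in Mog+ cells), 6 of 11 squalene to sterol genes and 3 of 8 fatty acid genes. The 4 galactolipid and sphingolipid genes (Fa2h, Ugt8a, Cers2 and Gal3st1) were highest in Mog+ cells. With all 6 classes side by side, 13 genes were highest in Enpp6+ cells, 13 in Mog+ cells and 8 in astrocytes (Tm7sf2, Msmo1, Srebf1, Srebf2, Scap, Scd1, Elovl5 and Acsl3). These orders rest on medians, and neighbouring classes often overlapped. They differ in part from the edgeR fits within libraries described below. Hmgcs1 was called higher in Mog+ than in Enpp6+ cells there (log2 change 0.74). Idi1 (0.31), Pmvk (0.04), Sqle (0.25), Cyp51 (0.40), Msmo1 (0.34), Srebf2 (0.14) and Elovl6 (0.29) had positive changes and were not called. The other genes with their highest stage median in Enpp6+ cells had negative changes. Of these Acat2, Mvd, Lss and Acsl3 were called lower in Mog+ cells and the rest were not called. Msmo1 was also higher in Mog+ cells than in astrocytes, but not under library-size scaling.

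**Figure D2:**
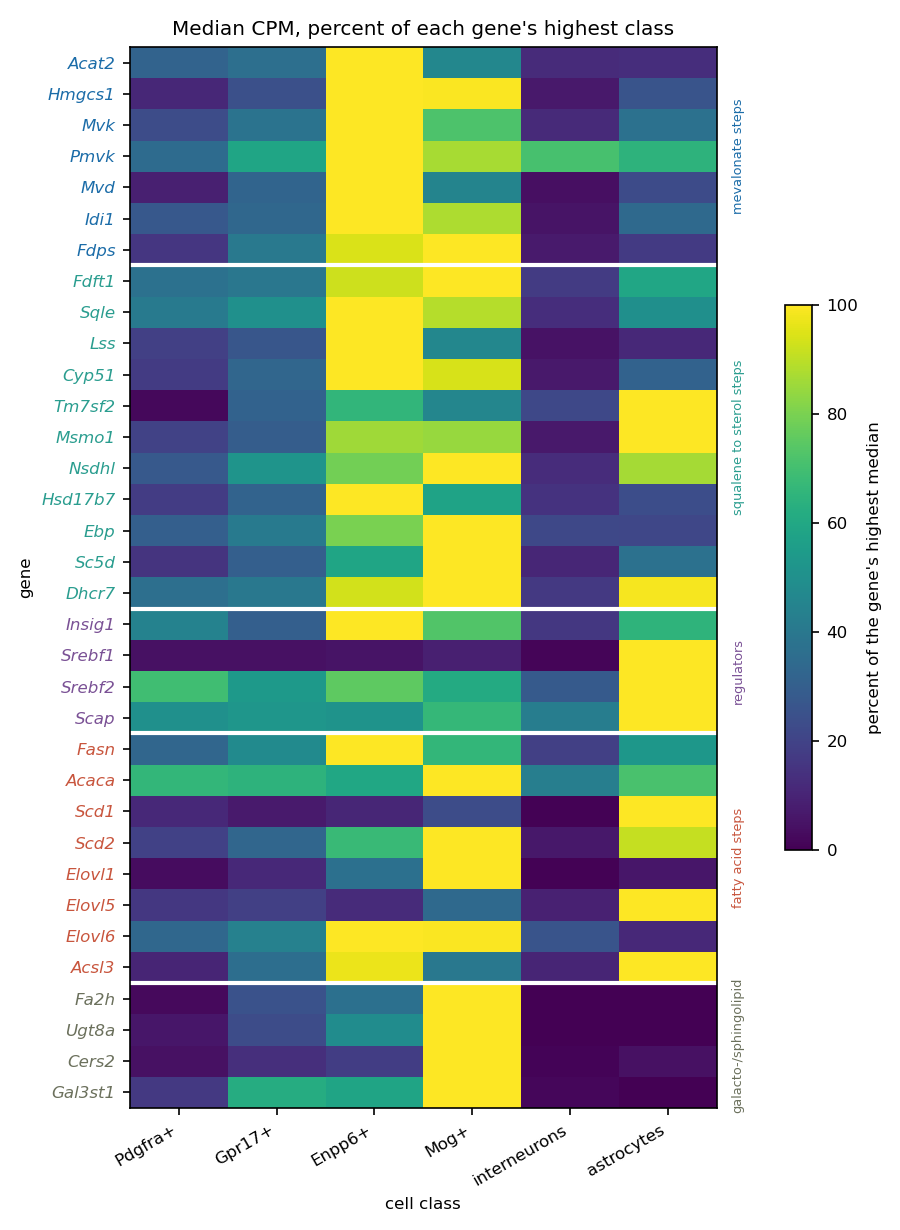
Median CPM over libraries of each of the 34 genes in 6 cell classes, as a percent of the gene's highest class. Enpp6+ cells hold the highest median of 13 genes, Mog+ cells of 13 and astrocytes of 8. These are orders of medians. In the edgeR fits within libraries Hmgcs1 was called higher in Mog+ than in Enpp6+ cells. The sign of Msmo1 between Mog+ cells and astrocytes depended on the scaling.

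Differences between stages were fitted within libraries on the summed UMIs of each class, and 33 of the 34 genes passed the filter on low counts, Srebf1 not. A gene was called at an adjusted p under 0.01 (edgeR quasi-likelihood test with Benjamini-Hochberg adjustment over all 6449 genes tested) with a log2 change of 0.1443 or more in either direction. Successive comparisons share the cells of the stage between them, so that their values are not independent.

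From Pdgfra+ to Gpr17+ cells 11 of 33 genes were called higher and 0 lower by edgeR, where 13.7% of all genes tested were called higher. By DESeq2 the counts were 11 and 0 as well, and at an unadjusted p under 0.05 edgeR had 21 genes past the threshold. The count depends on the settings, with 5 genes called where stages were set by several markers, 7 with gates on cells thinned to 1000 UMIs, 17 at an adjusted p of 0.05 and 20 with no low-count filter. The median change of the 33 genes was 0.71 on the log2 scale against 0.03 over all genes tested, and 9 of the 34 genes were higher in each of the 8 libraries. The share called was above that of all genes, and most of it came from the lipid end of the pathway. All 4 galactolipid and sphingolipid genes and 4 of 8 fatty acid genes (Scd2, Elovl1, Elovl6 and Acsl3) were called. So were 3 of 7 mevalonate genes (Hmgcs1, Mvd and Fdps), but 0 of 11 squalene to sterol genes by edgeR or DESeq2, of which 6 had an unadjusted p under 0.05. The regulators Insig1, Srebf2 and Scap had changes from -0.15 to 0.28 and none was called by edgeR or DESeq2, with 0 at an unadjusted p under 0.05. Sqle turned negative under library-size scaling and under DESeq2, and Dhcr7 and Elovl5 under DESeq2.

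Fa2h, which hydroxylates the fatty acids of myelin sphingolipids, stood at 0, 16.5 and 50.6 CPM (lowest, median and highest library) in Pdgfra+ cells and 127, 157 and 264 CPM in Gpr17+ cells. Each Gpr17+ library lay above each Pdgfra+ library. The change was 3.10 ± 0.24 (adjusted p 1.43e-14), higher in 8 of 8 libraries. Ugt8a, whose enzyme joins galactose to ceramide, stood at 0, 133 and 188 CPM against 313, 512 and 822 CPM. The classes again did not overlap, and the change was 2.07 ± 0.22 (adjusted p 8.26e-11), higher in 8 of 8 libraries. Elovl1, which lengthens saturated and monounsaturated very long chains, stood at 0, 16.7 and 50.6 CPM against 35.2, 56.3 and 151 CPM. Its highest Pdgfra+ library reached into the Gpr17+ range, and the change was 2.09 ± 0.34 (adjusted p 1.84e-06), higher in 7 of 8 libraries. UMIs behind the Pdgfra+ values were few, 24 for Fa2h, 161 for Ugt8a and 20 for Elovl1. With stages set by several markers the changes were smaller and still called, 2.50 for Fa2h, 1.30 for Ugt8a and 0.90 for Elovl1, and with thinned gates Elovl1 (2.02) was not called.

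The step from Gpr17+ to Enpp6+ cells took in the sterol branch. Of 33 genes tested 28 were called higher and 0 lower by edgeR, against 13.9% of all genes called higher. At an unadjusted p under 0.05 30 genes passed, and DESeq2 called 27 higher and 0 lower. The median change was 1.28, while that of all genes was -0.0062 and moved to -0.17 under library-size scaling, where 27 genes were called higher, 0 lower, and the uncalled Acaca turned negative. Higher in each of 9 libraries were 18 of the 34 genes. All 7 mevalonate genes were called, with changes from 1.23 (Pmvk) to 1.72 (Mvd), and all 11 squalene to sterol genes, from 1.16 (Sqle) to 1.68 (Msmo1). Insig1, which holds the SCAP complex back, rose by 1.48 and Srebf2, which encodes the SREBP most tied to sterol genes, by 0.63. The 5 genes not called were Scap, Acaca, Scd1, Elovl5 and Gal3st1, with changes from -0.36 to 0.86.

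Mvd, which makes isopentenyl diphosphate, stood at 47.2, 84.4 and 196 CPM in Gpr17+ cells and at 152, 261 and 485 CPM in Enpp6+ cells. The ranges overlapped, yet within each library Enpp6+ cells were higher. The change was 1.72 ± 0.16 (adjusted p 6.26e-12), higher in 9 of 9 libraries. Msmo1, which acts in the removal of methyl groups from the sterol ring, stood at 86.9, 189 and 331 CPM against 341, 549 and 906 CPM. No library overlapped between the classes, and the change was 1.68 ± 0.22 (adjusted p 1.78e-08), higher in 9 of 9 libraries. Fdps, which makes farnesyl diphosphate, stood at 69.5, 311 and 524 CPM against 321, 723 and 1439 CPM. Here the ranges overlapped, and the change was 1.65 ± 0.21 (adjusted p 1.29e-08), higher in 9 of 9 libraries.

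The share of cells with a UMI is given for Hmgcs1 as an example. Hmgcs1, which forms the precursor of mevalonate, had a UMI in 32.6% of Pdgfra+ cells, 44.7% of Gpr17+, 80.4% of Enpp6+ and 94.0% of Mog+ cells at median depths of 1967, 3016.5, 5568 and 5901 UMIs. In cells thinned to 1000 UMIs the shares were 16.6%, 25.1%, 61.7% and 73.5%, so that the order held at equal depth for this gene. Not every gene shared the rise to Mog+ cells. From Enpp6+ to Mog+ cells the thinned share went from 27.3% to 13.6% for Acat2 and from 15.0% to 55.8% for Cers2. Over all classes 3134 kept cells were too shallow to thin, so that the thinned shares rest on the deeper cells. Interneurons had 55.7% (median 7984 UMIs) and 11.6% after thinning, and astrocytes 58.1% (median 2741 UMIs) and 34%. Hmgcs1 is made by most cells, so that no class here gives its background.

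From Enpp6+ to Mog+ cells the genes moved in both directions, also within the mevalonate, squalene to sterol and fatty acid steps. By edgeR 13 of 33 genes were called higher and 4 lower, against 27.7% and 24.7% of all genes (52.4% in either direction). The share called higher was above that of all genes by less than at the step before. In this comparison the scaling matters: with library-size scaling in place of TMM the median of all genes moved from 0.04 to -0.30, that of the 33 genes from 0.31 to -0.05, 10 genes were called higher and 7 lower, and 9 genes changed sign (Pmvk, Idi1, Fdps, Fdft1, Sqle, Msmo1, Dhcr7, Srebf2 and Elovl6, none called under either scaling). Mvk and Fasn changed sign under DESeq2, which called 13 higher and 3 lower. With stages set by the summed UMIs of several markers, 21 were called higher and 1 lower, so that the falls given below, except that of Acsl3 (highest adjusted p of any setting 0.00118), depend on how the stage is set. The list of 10 Mog markers alone took up 155929 CPM in Mog+ cells against 55139 CPM in Enpp6+ cells (medians), and its part in the shift was not tested.

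The galactolipid and sphingolipid genes rose at this step, 4 of 4 called, with a median of 1.53, and 5 of 8 fatty acid genes (Acaca, Scd1, Scd2, Elovl1 and Elovl5) were called higher. These 9 were called higher under library-size scaling and by DESeq2 too. Of the sterol genes Hmgcs1, Ebp, Sc5d and the regulator Scap were called higher, but Hmgcs1 (0.74 with TMM, 0.37 with library-size scaling), Sc5d and Scap lost the call under library-size scaling. Called lower were Acat2, Mvd, Lss and Acsl3. In each of the 9 libraries 6 of the 34 genes were higher and 3 were lower in Mog+ cells.

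Cers2, which makes ceramides with very long acyl chains, stood at 76.1, 196 and 321 CPM in Enpp6+ cells and 409, 1084 and 1330 CPM in Mog+ cells. No libraries overlapped between the classes. The change was 2.60 ± 0.15 (adjusted p 2.25e-20), higher in 9 of 9 libraries. Fa2h stood at 126, 229 and 368 CPM against 409, 622 and 866 CPM, without overlap. Its change was 1.78 ± 0.11 (adjusted p 1.44e-18), higher in 9 of 9 libraries. Elovl1 stood at 70.0, 181 and 260 CPM against 164, 491 and 733 CPM. Its lowest Mog+ library lay within the Enpp6+ range, and the change was 1.66 ± 0.14 (adjusted p 8.31e-15), higher in 9 of 9 libraries.

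The falls were smaller. Acsl3, which joins long-chain fatty acids to coenzyme A, stood at 710, 900 and 1412 CPM in Enpp6+ cells and at 296, 370 and 502 CPM in Mog+ cells. Each Mog+ library lay below each Enpp6+ library, with a change of -0.93 ± 0.14 (adjusted p 8.08e-08), lower in 9 of 9 libraries. Acat2, which condenses acetyl-coenzyme A in the cytosol, stood at 220, 381 and 739 CPM against 70.2, 177 and 288 CPM. The ranges overlapped at their edges, and the change was -0.91 ± 0.15 (adjusted p 6.03e-07), lower in 9 of 9 libraries. Mvd stood at 152, 261 and 485 CPM against 58.1, 118 and 167 CPM. Again the edges overlapped, and the change was -0.84 ± 0.13 (adjusted p 3.30e-07), lower in 9 of 9 libraries. Lss, which closes squalene epoxide to lanosterol, fell by 0.70 (adjusted p 0.00223), lower in 8 of 9 libraries, and was not called by DESeq2. Where the stage was set by several markers in place of a single gene, Mvd fell by 0.30 and was no longer called (adjusted p 0.173), nor was Acat2 (-0.44, adjusted p 0.0138), each the highest adjusted p over the settings tried.

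**Figure D3:**
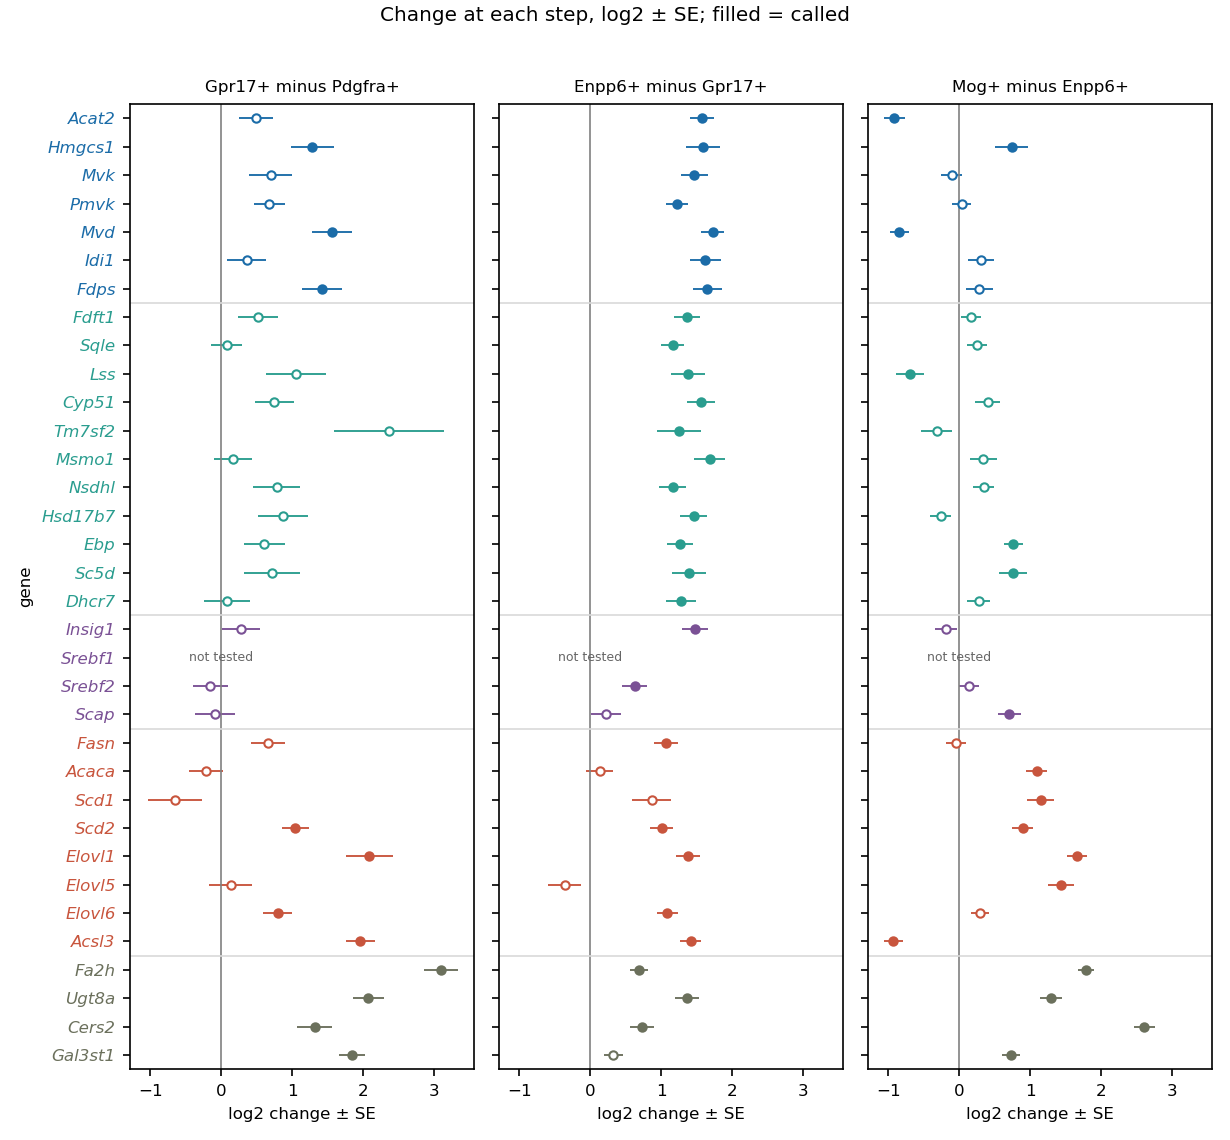
Fitted log2 change ± SE of each gene at 3 successive stage comparisons (points filled where called, colours by role, TMM scaling). Between Enpp6+ and Mog+ cells 13 genes are called higher and 4 lower, which becomes 10 and 7 under library-size scaling, where 9 uncalled genes change sign, while between Gpr17+ and Enpp6+ cells 28 and 27 are called higher.

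Between the ends of the series, Pdgfra+ and Mog+ cells, 33 of 33 genes tested were called higher by edgeR (31.7% of all genes) and 32 by DESeq2. The median change was 2.19 against 0.05 over all genes, and library-size scaling, which moved the median of all genes to -0.54, left 27 called higher and 0 lower. In each of 8 libraries 22 of the 34 genes were higher. The largest changes were those of Fa2h (5.56 ± 0.20, adjusted p 2.75e-27), Elovl1 (5.12 ± 0.26, adjusted p 2.45e-22) and Ugt8a (4.72 ± 0.21, adjusted p 6.72e-24), each higher in 8 of 8 libraries. Mog+ libraries stood at 409, 622 and 866 CPM for Fa2h, 164, 491 and 733 CPM for Elovl1 and 1046, 2214 and 2794 CPM for Ugt8a, all above the Pdgfra+ libraries given before.

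Against interneurons, Mog+ cells were higher for each of the 34 genes, with 34 of 34 called by edgeR and by DESeq2, where 36.5% of the 11341 genes tested were called higher and 41.4% lower (77.9% together). The median change was 3.21 against -0.09 over all genes, which moved to -0.57 under library-size scaling and to -0.24 under DESeq2, with 34 called higher under both. The sign was the same in 10 of 10 libraries for each gene. Changes ran from 0.80 for Pmvk, which phosphorylates mevalonate phosphate, and 1.09 for Scap to the largest 3, those of Ugt8a, Fa2h and Elovl1. Medians by role were 3.96 for the mevalonate steps, 3.38 for squalene to sterol, 1.99 for regulators, 2.51 for fatty acid steps and 8.28 for galactolipid and sphingolipid steps.

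Ugt8a stood at 0.778, 3.04 and 21.1 CPM in interneurons and at 1046, 2214 and 2794 CPM in Mog+ cells. The change was 9.56 ± 0.31 (adjusted p 3.86e-25), higher in 10 of 10 libraries. Ugt8a had a UMI in 97.3% of Mog+ cells (median 5901 UMIs), 3.03% of interneurons (median 7984 UMIs) and 1.5% of astrocytes (median 2741 UMIs). Fa2h stood at 0.423, 1.31 and 5.18 CPM in interneurons, with a change of 9.33 ± 0.23 (adjusted p 5.97e-28), and Elovl1 at 1.94, 3.63 and 6.33 CPM, with a change of 7.49 ± 0.16 (adjusted p 1.52e-29), each higher in 10 of 10 libraries. No interneuron library came near the Mog+ range for these genes. As a share of the Mog+ level in the same library, the median interneuron level was 0.165% for Ugt8a and 0.178% for Fa2h, beside 0.221% for the myelin gene Mobp, 0.143% for Mog and 0.514% for the highest of the Mog markers read the same way. The share of Ugt8a was above that of Mobp in 1 of 10 libraries and that of Fa2h in 3, so that no expression in interneurons is read from either. Over the settings tried the change ran from 7.73 to 9.92 for Ugt8a and from 7.51 to 9.69 for Fa2h, lowest with thinned gates. Shares for Elovl1 (0.715%), Cers2 (0.816%) and Gal3st1 (2.37%) were higher and above the Mobp share in 10 of 10 libraries each, as was that of the highest Mog marker.

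Astrocytes had 26 of 34 genes called higher and 2 lower than interneurons, against 20.1% and 30.7% of all genes (50.9% together). The median change was 2.03, against -0.24 over all genes, and 22 of the 34 genes were higher in each of 9 libraries. DESeq2 called 26 higher and 1 lower. Called higher were 5 of 7 mevalonate, 9 of 11 squalene to sterol, 4 of 4 regulator, 7 of 8 fatty acid and 1 of 4 galactolipid and sphingolipid genes, the last being Cers2.

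Scd1, a desaturase that puts a double bond into saturated chains, stood at 131, 192 and 263 CPM in astrocytes and 0, 1.07 and 2.42 CPM in interneurons. The classes were far apart in every library. The change was 7.45 ± 0.27 (adjusted p 8.52e-23), higher in 9 of 9 libraries. Srebf1, which encodes the SREBP most tied to fatty acid genes, stood at 63.5, 157 and 206 CPM against 0.918, 2.34 and 3.45 CPM, without overlap. Its change was 5.73 ± 0.22 (adjusted p 7.58e-22), higher in 9 of 9 libraries. Scd2, the second desaturase, stood at 785, 1768 and 2607 CPM against 84.0, 122 and 164 CPM. These ranges were apart too, and the change was 3.80 ± 0.17 (adjusted p 6.90e-20), higher in 9 of 9 libraries.

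Elovl6, which lengthens palmitic acid, was lower in astrocytes, at 0, 37.7 and 58.4 CPM in astrocytes and 59.8, 84.1 and 110 CPM in interneurons. No libraries overlapped, and the change was -1.06 ± 0.24 (adjusted p 2.06e-04), lower in 9 of 9 libraries. Gal3st1, which sulfates galactosylceramide to sulfatide, had 3 UMIs in astrocytes, in WT hippocampus replicate 3 (5.97 CPM) and null hippocampus replicate 1 (12.7 CPM), against 6.22, 10.3 and 18.1 CPM in interneurons. Astrocytes held 0 UMIs in the other libraries. The pooled ratio of astrocytes to interneurons was 0.199 (exact 95% interval 0.0411 to 0.584). The fitted change of -2.21 ± 0.67 (adjusted p 0.00445), lower in 6 of 9 libraries, depends on the prior count at such depth. It was not called without WT cortex replicate 3 (adjusted p 0.0109), null cortex replicate 2 (0.0137) or null hippocampus replicate 2 (0.0271), and was -3.41 without WT hippocampus replicate 3.

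Mog+ cells had 25 of 34 genes called higher and 4 lower than astrocytes, against 25.1% and 19.7% of all genes (44.8% together). The median change was 1.24, against 0.16 over all genes, which moved to -0.30 under library-size scaling and to -0.13 under DESeq2. The counts became 19 higher and 7 lower under library-size scaling, where Msmo1 and Insig1 turned negative, and 22 higher and 5 lower under DESeq2. All 7 mevalonate genes were called higher with either scaling and by DESeq2, with a median of 1.73. The regulators had a median of -0.33, and Srebf1 was the gene of the 4 that was called.

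The 3 largest rises were in genes that astrocytes hardly held. Ugt8a had 6 UMIs in astrocytes, Fa2h 5 and Gal3st1 3, with a median of 0 CPM over libraries for each. Against Mog+ cells the fitted changes were 9.34 ± 0.46 (adjusted p 8.67e-19), 7.63 ± 0.39 (adjusted p 1.34e-18) and 8.13 ± 0.34 (adjusted p 5.76e-21), each higher in 9 of 9 libraries. Without WT hippocampus replicate 3 the changes of Ugt8a and Gal3st1 were 10.43 and 9.19, and with mixed cells kept 7.76 and 6.09. For Gal3st1 the pooled ratio was 232 (exact 95% interval 79.3 to 1124). Mog+ cells lay above astrocytes in each library. In the other direction, Srebf1 stood at 0, 13.8 and 19.5 CPM in Mog+ cells, below each astrocyte library, with a change of -2.83 ± 0.20 (adjusted p 1.69e-14), lower in 9 of 9 libraries. Scd1 stood at 24.9, 44.9 and 77.4 CPM in Mog+ cells, also below each astrocyte library, with a change of -1.64 ± 0.20 (adjusted p 1.78e-08), lower in 9 of 9. Elovl5, which lengthens polyunsaturated chains, stood at 40.8, 63.6 and 121 CPM against 65.4, 185 and 422 CPM in astrocytes. Those ranges overlapped, and the change was -1.10 ± 0.18 (adjusted p 4.04e-06), lower in 9 of 9 libraries. Acsl3 was called lower too (-0.95). These 4 genes were called lower under library-size scaling and by DESeq2 as well.

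Other genes of the pathway, from lists of sterol, fatty acid and sphingolipid genes, moved in both directions. Of 14 other sterol genes tested, 3 were called higher and 3 lower from Pdgfra+ to Gpr17+, 5 and 3 from Gpr17+ to Enpp6+ and 4 and 4 from Enpp6+ to Mog+ cells. Of 16 other fatty acid genes the counts were 3 and 0, 10 and 1, and 7 and 4. Of 13 other sphingolipid genes they were 3 and 1, 3 and 1, and 7 and 0. Of all genes tested, 13.7% were called higher and 12.1% lower at the first step, 13.9% and 13.0% at the next and 27.7% and 24.7% at the last. The other sterol genes include those of uptake, export and storage. Against interneurons Mog+ cells had 11 of 19 other sterol, 12 of 18 fatty acid and 10 of 17 sphingolipid genes called higher and 7, 4 and 3 lower. For astrocytes against interneurons these counts were 11, 11 and 9 higher and 6, 5 and 3 lower, and for Mog+ cells against astrocytes 8, 9 and 7 higher and 6, 5 and 5 lower. The shares of all genes called in these class comparisons are given with each of them above. Nothing beyond the counts is read from these lists.

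Single genes of these lists show the range. Elovl7, an elongase of saturated very long chains, had a median of 14.6 CPM in Pdgfra+, 151 in Gpr17+, 378 in Enpp6+ and 450 in Mog+ cells, and rose by 2.95 (adjusted p 8.26e-12) at the first step. Lrp1, a lipoprotein receptor, had medians of 406, 195, 20.1 and 2.34 CPM, a steady fall, with -2.47 (adjusted p 2.21e-12) from Gpr17+ to Enpp6+ and -3.13 (adjusted p 6.38e-13) from Enpp6+ to Mog+ cells. Abcg1, a sterol exporter, had medians of 46.3, 8.37, 0.643 and 31.1 CPM, lowest in Enpp6+ cells. It changed by -1.72 (adjusted p 1.50e-04) from Pdgfra+ to Gpr17+ and by 4.08 (adjusted p 1.98e-14) from Enpp6+ to Mog+ cells. Aspa, which frees acetate from N-acetylaspartate and is also on the Mog marker list, had medians of 3.02 CPM in Enpp6+ and 511 CPM in Mog+ cells (7.42, adjusted p 1.63e-26). Cers6, a ceramide synthase of shorter chains, went the other way to Cers2, with 62.7 CPM in interneurons and 0.357 CPM in Mog+ cells (-6.95, adjusted p 5.13e-26). Acsl6, an acyl-coenzyme A synthetase, had 603 CPM in astrocytes and 0.679 CPM in Mog+ cells (-8.95, adjusted p 4.11e-27).

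Region was compared next, hippocampus against cortex with the genotypes weighted equally. A count of 0 in these fits does not show equal levels. In Mog+ cells 0 of 34 genes were called by edgeR (0.00966% of all genes), 1 had an unadjusted p under 0.05 (353 of all 10352 genes) and DESeq2 called 0. The median difference was 0.0032, against 0.05 over all genes, and 0 of 34 had libraries that did not overlap between regions (1.23% of all genes). The gene with the lowest p was Elovl5, at 121, 94.6, 66.1, 98.9 and 61.1 CPM in cortex (WT replicates 1 to 3, then null replicates 1 and 2) and 86.8, 44.1, 48.1, 40.8 and 46.4 CPM in hippocampus. WT hippocampus replicate 1 lay within the cortex range, and the difference of -0.68 was not called. Within each genotype and replicate number Elovl5 was lower in hippocampus. In Pdgfra+ cells 0 of 23 genes tested were called by edgeR (0% of all genes) or DESeq2, and 1 had an unadjusted p under 0.05 (206 of all 4412 genes). Fdps alone did not overlap (124 to 161 CPM in hippocampus, 48.3 to 121 CPM in cortex), where 5.3% of all genes did not overlap. The median difference in Pdgfra+ cells was 0.49, against 0.03 over all genes, with 18 of 23 genes higher in hippocampus. Region in Gpr17+ and Enpp6+ cells was compared only after the summed levels had been seen, and 0 of 33 genes were called by edgeR (0% and 0.0151% of all genes) or DESeq2 in either class, with 6 and 16 at an unadjusted p under 0.05, where 126 of all 7007 and 160 of all 6620 genes were.

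In interneurons 0 of 34 genes were called between regions by edgeR, where 0.853% of all genes were (0.481% higher in hippocampus). At an unadjusted p under 0.05 there were 3, against 1314 of all 13713 genes. The median difference was -0.17, against 0.0042 over all genes, and 8 of 34 genes were higher in hippocampus. DESeq2 called 1, Ugt8a, which was among these 8. Ugt8a stood at 2.88, 1.19, 2.56, 0.778 and 1.34 CPM in cortex and 10.5, 21.1, 5.17, 3.21 and 4.95 CPM in hippocampus, in the order WT replicates 1 to 3 and null replicates 1 and 2. Each hippocampal library lay above each cortical one, the single gene of the 34 with that split (4.19% of all genes). The edgeR difference was 2.07 ± 0.46 (adjusted p 0.0374), higher in 5 of 5 hippocampal libraries than in any cortical library. Myelin markers moved with it. The 10 Mog markers summed to 215, 118, 165, 198 and 162 CPM in cortex and 496, 1252, 308, 342 and 303 CPM in hippocampus, also without overlap. The part of free myelin RNA in the Ugt8a difference was not tested.

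Genotype was compared the same way, null against WT with the regions weighted equally. In Mog+ cells 0 of 34 genes were called by edgeR (0% of all genes) or by DESeq2, and 1 had an unadjusted p under 0.05 (358 of all 10352 genes). The median difference was -0.01, against -0.0586 over all genes. Cers2 stood at 1184, 478 and 673 CPM in WT cortex, 985, 409 and 917 CPM in WT hippocampus, 1302 and 1270 CPM in null cortex and 1325 and 1330 CPM in null hippocampus. Each null library lay above each WT library. Nsdhl, which acts in the removal of the same sterol methyl groups as Msmo1, was the other gene of the 34 whose libraries did not overlap, at 90.6 to 112 CPM in null and 35.5 to 89.9 CPM in WT libraries. Of all genes 1.59% did not overlap. Neither difference passed the threshold (0.70 for Cers2 and 0.47 for Nsdhl, adjusted p 0.955 for both).

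In interneurons 0 of 34 genes were called between genotypes by edgeR, where 0.00729% of all genes were, Grin1 alone. At an unadjusted p under 0.05 there were 2 (Ugt8a, -1.17, and Acat2, 0.47), against 749 of all 13713 genes. DESeq2 called 0, and 0 of 34 genes had libraries without overlap (1.53% of all genes). The median difference was 0.12, against -0.03 over all genes. Hmgcs1 stood at 112, 115 and 126 CPM in WT cortex, 99.8, 147 and 112 CPM in WT hippocampus, 85.5 and 152 CPM in null cortex and 78.5 and 136 CPM in null hippocampus. The null libraries held both the lowest and the highest value. In Pdgfra+ cells 0 of 23 genes were called by edgeR (0% of all genes) or DESeq2, and 0 did not overlap (5.69% of all genes). Gal3st1 and Cers2 had an unadjusted p under 0.05, as did 133 of all 4412 genes. Only 2 null libraries had enough Pdgfra+ cells to be fitted. The difference between the genotypes in their regional difference (interaction) had 0 of the genes called by edgeR in Pdgfra+ cells, Mog+ cells or interneurons, with 1, 0 and 0 at an unadjusted p under 0.05, and was not run by DESeq2. Its median was -0.57 in Pdgfra+ cells, 0.09 in Mog+ cells and -0.05 in interneurons, against -0.06, 0.05 and -0.02 over all genes.

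**Figure D4:**
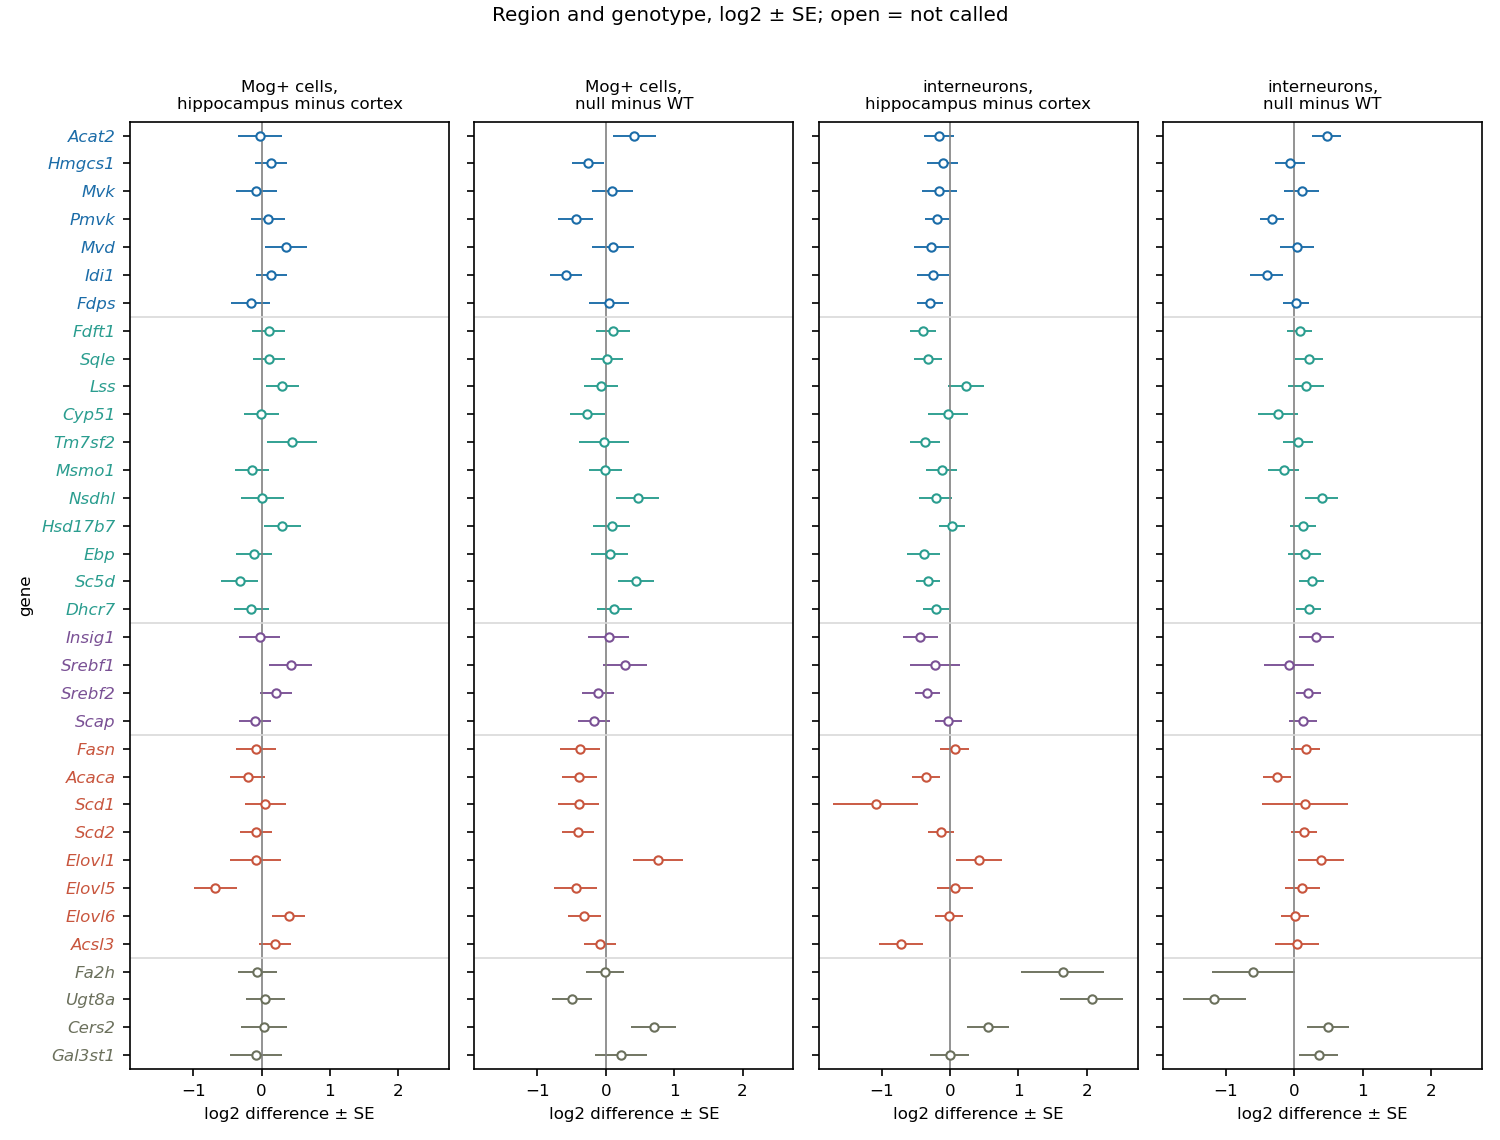
Fitted log2 difference ± SE of each of the 34 genes between regions and between genotypes, in Mog+ cells and in interneurons, with all points open since edgeR called none at an adjusted p under 0.01. Ugt8a in interneurons has the largest regional difference, 2.07, and DESeq2 called it.

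The promoters of the genes are shown because the sterol genes rose together between Gpr17+ and Enpp6+ cells, so that shared letters can be seen. RefSeq promoters (GRCm38.p6, 250 bases before to 50 after the start) were matched for 28 of the 34 genes, and Fdps, Fdft1, Sqle, Scd1, Scd2 and Fa2h had no entry in the promoter table used. Searched on both strands were TCACNCCAC, the core of a sterol element, CCAAT and CACGTG. A match to CCAAT was found for 23 of the 28 genes (82.1%), in 9 of 9 squalene to sterol genes, 5 of 6 mevalonate genes, 3 of 4 regulators, 4 of 6 fatty acid genes and 2 of 3 galactolipid and sphingolipid genes, against 41.1% of 27025 genes. CACGTG was found for 7 (25.0%), against 8.09% of all genes, and TCACNCCAC for 1 (3.57%), against 1.44%. By promoter the shares were 68.4%, 21.1% and 2.63% of the 38 promoters of these genes, against 37.4%, 7.15% and 1.24% of all 32851. A match is a description of letters and no evidence of binding. The 250 bases before the start are printed on the strand of the gene for 5 genes chosen as examples, with matches in capitals (ATTGG is CCAAT on the opposite strand, and in Fasn CCAATTGG is an overlap of both). Hmgcs1 (chr13:119690101-119690350, + strand) holds the single TCACNCCAC of the set, Mvd (chr8:122443423-122443672, - strand) had the largest change between Gpr17+ and Enpp6+ cells, Sc5d (chr9:42264301-42264550, - strand) holds CACGTG with CCAAT, and Fasn (chr11:120824548-120824797, - strand) and Elovl1 (chr4:118427843-118428092, + strand, the upstream of 2 entries) stand for the fatty acid steps.
Hmgcs1: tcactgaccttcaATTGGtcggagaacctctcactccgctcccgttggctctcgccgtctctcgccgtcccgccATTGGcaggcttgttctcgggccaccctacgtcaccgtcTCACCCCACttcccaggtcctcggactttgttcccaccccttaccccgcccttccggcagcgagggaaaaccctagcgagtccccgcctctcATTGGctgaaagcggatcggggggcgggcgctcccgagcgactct
Mvd: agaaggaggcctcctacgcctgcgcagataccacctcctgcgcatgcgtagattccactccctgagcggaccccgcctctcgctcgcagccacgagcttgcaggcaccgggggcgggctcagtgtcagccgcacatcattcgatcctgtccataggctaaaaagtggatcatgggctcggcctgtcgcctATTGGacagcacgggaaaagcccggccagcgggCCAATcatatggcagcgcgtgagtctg
Sc5d: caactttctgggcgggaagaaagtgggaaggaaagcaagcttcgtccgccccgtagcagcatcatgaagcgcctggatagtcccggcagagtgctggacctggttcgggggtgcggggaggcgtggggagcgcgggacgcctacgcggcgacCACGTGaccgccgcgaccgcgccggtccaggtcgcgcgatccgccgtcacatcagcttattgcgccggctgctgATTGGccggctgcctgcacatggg
Fasn: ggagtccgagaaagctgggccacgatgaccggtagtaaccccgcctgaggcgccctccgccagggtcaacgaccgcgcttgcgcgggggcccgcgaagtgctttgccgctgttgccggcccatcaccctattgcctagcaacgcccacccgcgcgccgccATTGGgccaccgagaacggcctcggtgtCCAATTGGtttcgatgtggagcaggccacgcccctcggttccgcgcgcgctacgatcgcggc
Elovl1: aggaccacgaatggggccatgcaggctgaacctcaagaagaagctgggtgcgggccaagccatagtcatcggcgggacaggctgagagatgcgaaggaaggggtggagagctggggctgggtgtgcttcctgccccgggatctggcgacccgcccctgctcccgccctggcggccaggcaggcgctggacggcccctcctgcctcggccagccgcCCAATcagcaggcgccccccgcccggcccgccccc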

How the data were processed

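The data are UMI counts from 10 droplet libraries of sorted TdT+ mouse cells. Per the deposited matrices, values are whole UMI counts per gene and cell, made by the authors with Cell Ranger (2.1.1 in the submitters' notes, 3.0.2 in the matrix header) on mm10, with gene ends extended by up to 4 kb. Libraries were told apart by barcode suffix, and replicates mapped to suffixes by cell number. No doublet caller was run, and no other per-sample columns exist.

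The 34 genes, the lists and the tests were chosen with earlier results of these data known. Kept cells had 200 to 6000 genes and under 30% mitochondrial UMIs. UMIs were summed per library and class (at least 10 cells) and scaled as CPM. Depths are given with the results, and intervals and floors cover counting error only.

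Tests used edgeR 4.0.16 (TMM, filterByExpr, quasi-likelihood F-test, Benjamini-Hochberg adjustment over all genes tested, limma 3.58.1, R 4.3.3), with a library block for stages and classes and averaged contrasts of the 4 groups for region and genotype, all two-sided. Genes were called where the adjusted p was below 0.01 and the change, as a natural log, 0.1 or more. DESeq2 1.42.0 was the second tool. Within-library log2 differences added 0.5 UMIs to each sum. The fits were tested on simulated data. Python 3.11.15, numpy 2.4.6, pandas 2.3.3, scipy 1.17.1 and matplotlib 3.10.9 did the rest.

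Named genes were the 3 largest called rises and falls per comparison, members whose libraries did not overlap between groups, and up to 2 rises and falls of the other lists, where single genes were left out. Hmgcs1, the genes with the lowest p in region or genotype, and the genes listed by name beside counts were chosen after their values were seen.

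Alternatives were stage gates of 1 and 3 UMIs, mixed cells kept, gates on cells thinned to 1000 UMIs, a stricter cell filter (1000 genes, 10% mitochondrial), an adjusted p of 0.05, DESeq2, library-size scaling, no low-count filter, at least 20 cells, fits of the compared classes alone, no library block, a replicate block, stages by several markers (Lhfpl3 was not used here), and each library left out. Libraries of the same replicate number were not treated as pairs in the fits reported.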

Additional observations from a re-analysis of the deposited data

Results flagged for a closer look

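For the summed lists and the named genes, the log2 difference between classes within each library was compared over the libraries, and a library was picked out where its gap to the nearest other library was large for the whole range. Of 71 groups of 8 to 10 libraries tested 9 held such a library, and chance alone picks out about 1 in 20 groups. No explanation was tested for any of them.

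WT hippocampus replicate 1 stood above the other libraries in Gpr17+ minus Pdgfra+ cells for 4 summed lists that share genes: the mevalonate steps (1.882), the squalene to sterol steps (1.614), the galactolipid and sphingolipid steps (2.916) and all 34 genes together (1.856). For all 34 genes the lowest of the other 7 libraries stood at 0.612, which is not the gap to the nearest library. The Mog list summed to 48899 CPM in the Gpr17+ cells of that library, the highest of the 9 fitted. The edgeR count of genes called without that library was 10, against 11 with it.

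WT cortex replicate 1 stood above the rest for Elovl1 in Mog+ minus Enpp6+ cells (2.182) and for Ugt8a in Mog+ minus Pdgfra+ cells (6.372). Its Pdgfra+ class had 10 cells and 0 UMIs of Ugt8a, so that the second value rests on the 0.5 UMIs added to each sum.

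WT hippocampus replicate 2, the library with the lowest median UMIs per cell, stood below the rest for all 34 genes in Mog+ minus Pdgfra+ cells (1.323), for Scd2 in astrocytes minus interneurons (2.666) and for Fa2h in Mog+ cells minus astrocytes (3.06, from 1 UMI in astrocytes). The Mog list summed to 6092 CPM in its Pdgfra+ cells, against 275 to 1164 CPM in the others.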

How the results depend on the processing

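For the counts of genes called, 189 of the values under other settings and 162 with a library left out were within 1.5 times the reported count, and 7 were not. A count of 0 that stayed at 0 was put among those within, as for region and genotype with any library left out. For the named genes 354 and 287 values kept direction and call, 8 and 3 kept direction and lost the call, and none reversed.

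The first step, Gpr17+ minus Pdgfra+, moved most. Against 11 genes called, it gave 17 at an adjusted p of 0.05, 20 with no low-count filter, 7 with gates set on cells thinned to 1000 UMIs and 5 with stages set by several markers. Region in interneurons, with 0 called, gave 1 by DESeq2, 1 at an adjusted p of 0.05 and 1 with no low-count filter. The cause was not tested. The count for Enpp6+ minus Gpr17+ ran from 23 (no library block) to 30 (no low-count filter).

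The split into higher and lower moved for Mog+ minus Enpp6+, from 13 and 4 to 10 and 7 under library-size scaling and 21 and 1 with stages set by several markers, and for Mog+ minus astrocytes from 25 and 4 to 19 and 7 under library-size scaling. Library-size scaling also moved the median of all genes for region in Pdgfra+ cells (from 0.03 to -0.15), Gpr17+ cells (0.02 to -0.09) and Enpp6+ cells (0.04 to -0.07), and DESeq2 that for Gpr17+ minus Pdgfra+ cells (0.03 to -0.08).

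With each library left out in turn, the counts ran from 10 to 12 for Gpr17+ minus Pdgfra+, 25 to 29 for Enpp6+ minus Gpr17+, 16 to 18 for Mog+ minus Enpp6+, 31 to 33 for Mog+ minus Pdgfra+, 34 to 34 for Mog+ cells minus interneurons, 26 to 28 for astrocytes minus interneurons and 27 to 29 for Mog+ cells minus astrocytes. All region and genotype counts by edgeR stayed at 0 in these fits, where a lone library of a group is assumed to vary like the others.

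Gal3st1 in astrocytes minus interneurons lost its call with gates of 3 UMIs (-1.59), mixed cells kept (-0.66), thinned gates (-0.96), DESeq2 (-1.66) and no library block (-2.15). Its adjusted p ran up to 0.321. Elovl1 in Gpr17+ minus Pdgfra+ lost it with thinned gates (2.02, adjusted p 0.0115).

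Libraries of the same replicate number had residuals that went together across genes (median r 0.341 over 13 pairs in Mog+ cells, 0.331 over 13 pairs in interneurons) while those of other numbers had medians of -0.196 and -0.195 over 24 pairs each. With replicate number as a block, which also stands for 10x chemistry, 0 of the 34 genes were called for region or genotype by edgeR.

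Not fitted were region and genotype in Pdgfra+ cells with thinned gates or without null hippocampus replicate 2, and in Pdgfra+, Gpr17+ and Enpp6+ cells without null cortex replicate 2. Region and genotype in Gpr17+ and Enpp6+ cells were added after the data were seen. Depth limits Pdgfra+ cells and astrocytes most, where several genes had fewer than 10 UMIs.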

Other observations

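Region in Gpr17+ and Enpp6+ cells was compared after the summed levels of each library had been seen, so these values are a description. In Enpp6+ cells the 34 genes summed to 7303, 8858 and 8291 CPM in WT cortex and 9950 CPM in null cortex replicate 2, and to 17742, 11283 and 14048 CPM in WT hippocampus and 13303 and 14093 CPM in null hippocampus. Each hippocampal library lay above each cortical one. By edgeR 0 of 33 genes were called (0.0151% of all genes), while 16 had an unadjusted p under 0.05 (160 of all 6620 genes), and DESeq2 called 0. The median difference was 0.73 against 0.04 over all genes, with 32 of 33 genes higher in hippocampus. Libraries did not overlap for 7 genes, where 2.05% of all genes did not: Cyp51, Dhcr7, Fdft1, Hmgcs1, Idi1, Pmvk and Tm7sf2, all higher in hippocampus. Hmgcs1 stood at 381, 1008 and 831 CPM in WT cortex, 1198 CPM in null cortex, 2401, 1887 and 1775 CPM in WT hippocampus and 1625 and 1851 CPM in null hippocampus.

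In Gpr17+ cells the sum was 2868, 4536 and 3547 CPM in WT cortex, 4771 CPM in null cortex, 9821, 7361 and 4313 CPM in WT hippocampus and 7478 and 5194 CPM in null hippocampus, with WT hippocampus replicate 3 inside the cortical range. Within each genotype and replicate number that had both regions, the hippocampal sum was the higher. By edgeR 0 of 33 genes were called (0% of all genes), 6 had an unadjusted p under 0.05 (126 of all 7007 genes) and DESeq2 called 0. The median difference was 0.66 against 0.02, with 31 of 33 genes higher, and Fdft1, Hmgcs1 and Lss did not overlap (1.81% of all genes). In WT alone the median was 1.14, with 32 of 33 genes higher and 18 at an unadjusted p under 0.05 (221 of all genes), and in null alone, with 1 library from cortex, 0.28, with 24 of 33 higher and 0 (30 of all genes). The test of the difference between genotypes (interaction) by edgeR called 0 of 33 genes and had 1 at an unadjusted p under 0.05, with a median of -0.77 against -0.10 over all genes and 4 of 33 positive. In Enpp6+ cells the medians were 0.91 in WT and 0.59 in null, and the interaction called 0, had 1 at an unadjusted p under 0.05 and had a median of -0.34 against -0.04. It was not run by DESeq2.

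Most genes of the Mog list moved the same way. Of the Mog list 7 of 9 genes tested were higher in hippocampus in Gpr17+ cells, with a median of 0.90 and 3 at an unadjusted p under 0.05, and 7 of 8 in Enpp6+ cells, with a median of 0.63 and 2. None was called by edgeR. Ptgds and Apod, markers of later Mog+ cells that are not on this list, did not move together. Ptgds differed by -2.11 in Gpr17+ and -1.53 in Enpp6+ cells, and Apod by 0.58 and 0.11, neither of them called. Mobp differed by 2.39 (adjusted p 0.887) in Gpr17+ cells and by 1.5 (adjusted p 0.735) in Enpp6+ cells, while Mog, which sets a gate, differed by -0.11 and -0.27. The list summed to 20247, 11957 and 14616 CPM in the Gpr17+ cells of WT cortex, 18033 CPM in null cortex, 48899, 15111 and 13434 CPM in WT hippocampus and 31087 and 20424 CPM in null hippocampus. In Enpp6+ cells it ran from 39712 to 56801 CPM in cortex and from 33735 to 82361 CPM in hippocampus. The regions overlapped in both classes. All 5 genes of the Gpr17 list were lower in hippocampus in both classes. The part of maturity within a stage in the regional values was not tested.

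Genotype in the same classes had 0 of 33 genes called by edgeR or DESeq2 (0% of all genes in each). At an unadjusted p under 0.05 there were 0 in Gpr17+ cells (270 of all 7007 genes) and 1 in Enpp6+ cells (271 of all 6620 genes). Median differences were -0.05 and 0.16, against -0.06 and -0.006 over all genes. Within regions, where cortex has 1 null library in both classes, the medians in Gpr17+ cells were 0.49 in cortex (25 of 33 genes higher in null) and -0.35 in hippocampus (5 of 33). The difference between them is the interaction given before, for which 0 genes were called, so that no difference between regions is read from it. In Enpp6+ cells the medians were 0.31 (27 of 33) and -0.07 (16 of 33). No gene of the 33 had null and WT libraries without overlap, against 3.55% of all genes in Gpr17+ and 2.84% in Enpp6+ cells.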
